A study of Mus musculus with 6 samples.

Results

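The Rab GTPases and endosomal sorting genes are 209 of the 10191 genes in the deposited expression table of this series, in which RNA was sequenced from mouse lung tumours. They were chosen by gene name alone: Rab GTPases and genes named after them, TBC1D and RABGAP proteins, VPS, SNX, CHMP and exocyst (EXOC) genes, subunits of the AP-1 to AP-4 adaptors, and the EHD, VAMP and STX families, less the names that the rule leaves out. The design text gives both groups the same genotype, and the animals of both received a virus injection. The SD group (3 libraries) came from mice housed in SD cages and the Ctrl group (3 libraries) from mice housed in home cages. Either cage was used for 20 hours a day, from hour 14 to hour 10, over 7 weeks after the injection, with lights on from hour 8 to hour 20. The series title speaks of sleep deficiency, and the labels do not spell out SD. The sources used here give neither the age, sex and strain of the mice nor the virus or the hour at which tissue was taken. The labels call the libraries biological replicates without saying whether each came from 1 animal, so each p-value is relative to the spread between these samples, which may be technical in part.

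Rab GTPases are switches: with GTP bound they sit on the membrane of 1 organelle and recruit tethers, motors and fusion factors, and GTPase-activating proteins of the TBC1D family turn them off. From the early endosome, retromer and the sorting nexins return receptors to the Golgi or the cell surface, while the ESCRT complexes pack other receptors into vesicles for the lysosome. In the lung, type 2 alveolar cells store surfactant in lamellar bodies, which are lysosome-related organelles secreted by regulated exocytosis.

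Of the 209 members, 207 passed the filter on low values, at least 1 CPM (the reads of a gene divided by the depth of its library, on a common scale) in at least 3 libraries. Among these 207, 37 were higher and 99 were lower in SD at an adjusted p under 0.05, and 71 did not pass. The members called were thus 65.7% of those tested, 17.9% higher and 47.8% lower, while of all 10004 genes tested 56.6% were called, 28.1% higher and 28.5% lower. The median log2 fold change of (CPM + 1), SD over Ctrl, was -0.30 over the members and -0.01 over all genes tested. Most of these differences were small. A change of at least 2-fold on that scale was called higher for 3 members and lower for 18, against 7.76% of all genes tested called higher and 6.58% called lower by that rule. In 67.1% of the tested members the SD and Ctrl libraries did not overlap, 37 with every SD library above and 102 with every SD library below, against 60.3% of all genes tested (30.0% above and 30.4% below). Summed over the 209 members, the level was 14910 ± 54.3 CPM in SD and 16170 ± 77.0 CPM in Ctrl (s.d., n = 3 each). Because tumours are bulk tissue, fewer cells of a type and less RNA per cell cannot be told apart in any of these values.

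**Figure D1:**
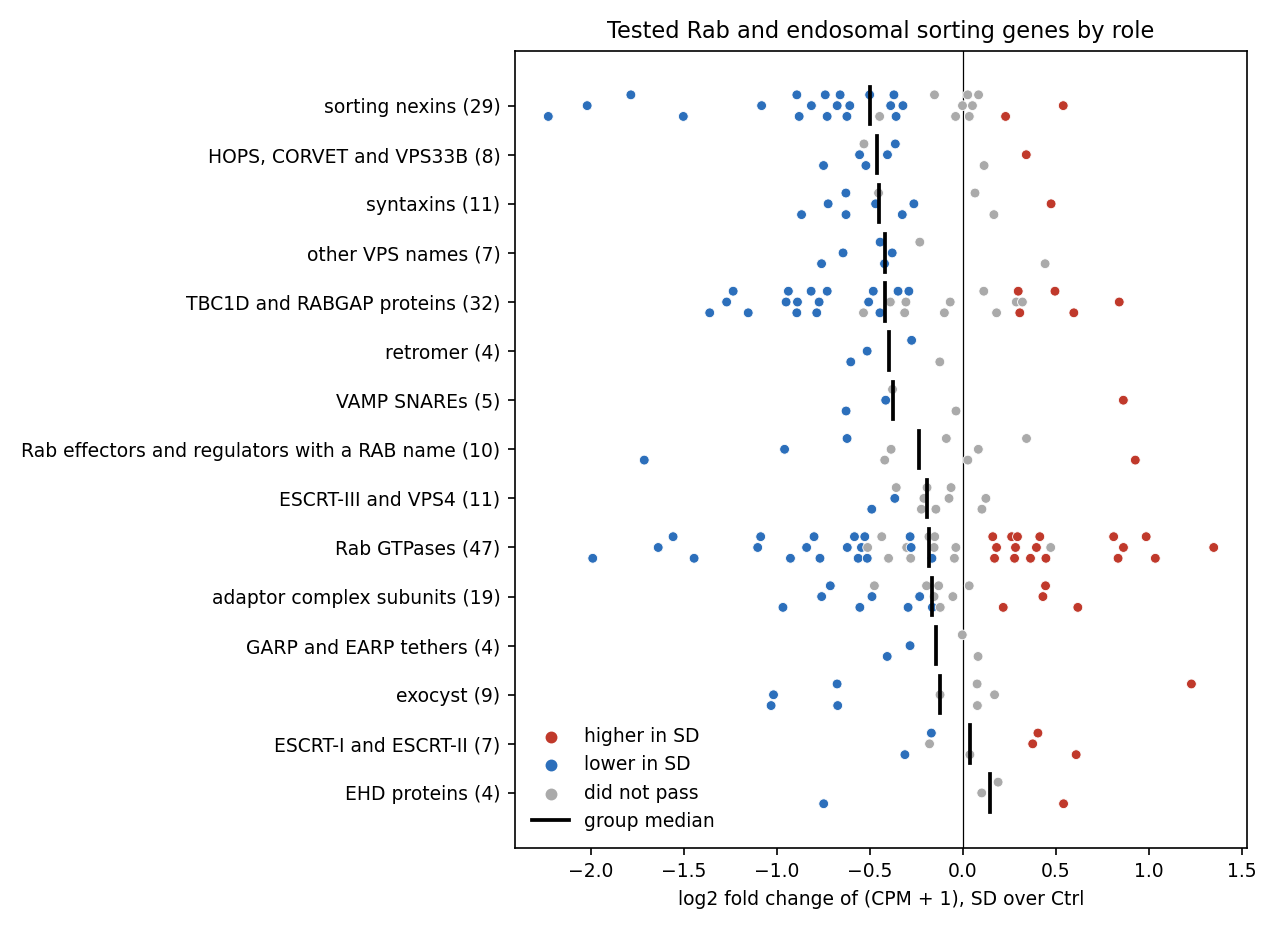
Log2 fold change of (CPM + 1), SD over Ctrl, for each of the 207 tested members, by role, with the number tested in brackets; red points were higher in SD, blue points lower, grey points did not pass, and the black bar is the median of the role. Medians ran down to -0.50 in the sorting nexins and up to 0.15 in the EHD proteins, and the Rab GTPases spread from -1.99 to 1.35.

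The libraries held 6511192 to 6968966 reads in SD and 7021019 to 7417095 reads in Ctrl, and a count of 3 reads corresponded to 0.404 to 0.461 CPM. Such floors cover counting error only. The mix of lung cell type markers was not the same in SD and Ctrl. The summed level of the 7 measured type 2 alveolar markers of 10 listed was 1359 to 1441 CPM in SD and 4937 to 5449 CPM in Ctrl, and all 7 fell. The 5 measured alveolar macrophage markers of 10 listed summed to 49.4 to 62.0 CPM in SD and 335 to 342 CPM in Ctrl, and all 5 fell. All 7 measured ciliated cell markers of 8 listed rose (1403 to 1434 CPM in SD, 361.5 to 378 CPM in Ctrl), as did all 8 measured endothelial markers of 10 listed (3447 to 3562 CPM in SD, 1131 to 1166 CPM in Ctrl; 1 of them, Tek, is among the first 60 genes of the table) and all 6 smooth muscle markers (1127 to 1137 CPM in SD, 442.2 to 452.5 CPM in Ctrl). The 3 measured lung epithelial identity markers of 4 listed, Cdh1, Epcam and Foxa2, fell. Of the 5 measured type 1 alveolar markers of 6 listed, 2 rose and 3 fell (1199 to 1230 CPM in SD, 1258 to 1302 CPM in Ctrl). The 2 measured club and secretory cell markers of 5 listed rose (1169 to 1231 CPM in SD, 375.2 to 404.7 CPM in Ctrl). None of the measured markers was at 0, and the lowest was Itgax, at 0.200 CPM in SD and 3.62 CPM in Ctrl. The part of these markers in the results on the members was not tested. After its first 60 genes, which hold no member, the deposited table runs largely in alphabetical order, and 1005 of 10131 genes stand out of it. Of the 1008 genes there with an SD mean of at least 2 times the Ctrl mean, 978 stand out of order. The 8 members out of order, Rab36, Exoc3l4, Rab39b, Rab24, Rab11fip4, Rab3b, Tbc1d10c and Rab30, are the 8 members with such a ratio, and how the genes were ordered was not tested.

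The series title names circadian disruption, and the clock proteins CLOCK and BMAL1 bind the E-box CACGTG. In RefSeq's promoter table for GRCm38.p6, 162 of the 209 members had an entry, and the 250 bases before each listed transcript start were searched on both strands for CACGTG and for TAGGTCA, the element read by REV-ERB and ROR receptors. An E-box lay in a window of 23 of the 162 members (14.2%), against 817 of the 7895 genes tested in this study with an entry (10.3%) and 1854 of all 27025 genes of the table (6.86%). By call, the share was 3 of 27 members that were higher (11.1%), 11 of 77 that were lower (14.3%) and 8 of 57 that did not pass (14.0%), and the remaining member with a match, Tbc1d24, was not tested. TAGGTCA lay in a window of 6 members (3.70%), against 1.86% of the genes tested and 2.55% of all genes of the table. These 4 windows, chosen after the values were seen, hold the E-box before a RefSeq transcript start of a secretory Rab, a sorting nexin and a retromer subunit that were lower in SD, and of an endosomal Rab that was higher. By the GENCODE gene spans, the Rab27a and Snx5 windows lie inside the gene, the Vps26a window reaches into it, and that of Rab5a lies in front of it. Each is written 5′ to 3′ on the strand of its gene, with CACGTG in capitals, and none holds TAGGTCA. Rab27a lies on the plus strand at chr9:73063898-73064147, Snx5 on the minus strand at chr2:144270573-144270822, Vps26a on the minus strand at chr10:62486599-62486848 and Rab5a on the plus strand at chr17:53478984-53479233.
Rab27a: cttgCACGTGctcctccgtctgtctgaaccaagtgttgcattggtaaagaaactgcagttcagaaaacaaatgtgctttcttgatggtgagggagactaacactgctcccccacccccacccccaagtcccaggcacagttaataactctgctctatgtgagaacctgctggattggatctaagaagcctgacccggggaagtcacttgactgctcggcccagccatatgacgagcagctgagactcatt
Snx5: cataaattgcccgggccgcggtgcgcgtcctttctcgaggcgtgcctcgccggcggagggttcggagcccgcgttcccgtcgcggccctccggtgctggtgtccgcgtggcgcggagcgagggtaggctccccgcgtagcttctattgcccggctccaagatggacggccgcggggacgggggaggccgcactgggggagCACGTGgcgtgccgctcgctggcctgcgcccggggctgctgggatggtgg
Vps26a: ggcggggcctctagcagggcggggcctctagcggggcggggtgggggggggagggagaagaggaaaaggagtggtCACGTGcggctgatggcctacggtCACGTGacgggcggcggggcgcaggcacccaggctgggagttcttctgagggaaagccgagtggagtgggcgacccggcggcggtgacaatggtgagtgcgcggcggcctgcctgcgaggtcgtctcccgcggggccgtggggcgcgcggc
Rab5a: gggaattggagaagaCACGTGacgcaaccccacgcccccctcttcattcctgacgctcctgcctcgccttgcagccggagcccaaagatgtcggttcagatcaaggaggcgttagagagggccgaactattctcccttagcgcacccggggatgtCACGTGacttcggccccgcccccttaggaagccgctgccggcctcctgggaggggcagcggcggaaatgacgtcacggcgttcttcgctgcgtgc
The windows of Vps26a and Rab5a hold 2 matches each, and those of Rab27a and Snx5 hold 1. Rab27a has 1 further window in the promoter table, without a match. Vps26a also has 1 further window, at chr10:62486806-62487055 in front of the gene, and it holds 1 CACGTG. A match is a description of these letters and not a site of binding.

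The Rabs of secretory granules and lysosome-related organelles were the Rabs with the lowest median, -1.01. Of the 8 tested members 7 were lower and 1 higher, beside 28.5% of all genes tested lower and 28.1% higher. The summed level of these Rabs, over 9 members, was 81.9 ± 5.69 CPM in SD and 180 ± 6.70 CPM in Ctrl (s.d., n = 3 each). This grouping of the Rabs by compartment was made after the values were seen and is a description. Rab32, which with Rab38 directs cargo to lysosome-related organelles such as melanosomes, stood at 7.37, 6.74 and 5.38 CPM in SD, against 30.9, 29.1 and 25.9 CPM in Ctrl. It was 4.41-fold lower in SD (log2 fold change -1.99 ± 0.17 SE, adjusted p = 1.9e-12), and every SD library lay below every Ctrl library. Rab32 lies on mm10 chromosome 10, from 10545002 to 10558265. Rab38, whose loss in rats and mice enlarges the lamellar bodies of type 2 cells, stood at 13.98, 12.8 and 10.5 CPM in SD, against 24.01, 24.1 and 24.8 CPM in Ctrl. It was 1.96-fold lower in SD (log2 fold change -0.93 ± 0.16 SE, adjusted p = 4.5e-06), again with all SD libraries below all Ctrl libraries. Rab27a, which docks secretory granules and lysosome-related organelles at the plasma membrane and whose promoter window is printed above, was at 13.1, 17.1 and 14.2 CPM in SD, against 39.9, 41.9 and 43.3 CPM in Ctrl. It lies on chromosome 9, from 73044854 to 73097629, and was 2.82-fold lower in SD (log2 fold change -1.44 ± 0.13 SE, adjusted p = 9.1e-12). Rab27b, its close relative in exocytosis, was at 4.15, 7.89 and 5.23 CPM in SD, against 12.97, 13.6 and 12.8 CPM in Ctrl. The fall was 2.28-fold (log2 fold change -1.10, adjusted p = 4.2e-05), and the 3 SD values spread more widely than the 3 Ctrl values without reaching them.

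The 4 Rab3 proteins act on regulated secretory vesicles, and 3 of them were lower. Rab3c was 3.23, 3.01 and 2.39 CPM in SD, against 8.97, 11.2 and 13.2 CPM in Ctrl, which is 3.87-fold lower in SD (log2 fold change -1.64, adjusted p = 2.3e-07). Rab3d, found on zymogen granules and other secretory granules, was at 9.83, 9.47 and 10.2 CPM in SD, against 19.9, 12.7 and 22.4 CPM in Ctrl (1.86-fold lower, adjusted p = 0.00045). Ctrl replicate 2 was the lowest Ctrl library for Rab3d and still above the SD libraries. Rab3a, best known from synaptic vesicles, fell 1.52-fold (log2 fold change -0.58, adjusted p = 7.3e-05). Rab3b went the other way at a low level, with 2.46, 2.15 and 2.09 CPM in SD, against 0.966, 0.809 and 0.5697 CPM in Ctrl (2.86-fold higher, log2 fold change 0.86, adjusted p = 0.016). Its call was lost without Ctrl replicate 3 (adjusted p = 0.058). The ninth gene of the group, Rab37, did not pass the filter, with 1.54, 0.718 and 0.149 CPM in SD, against 0.828, 0.809 and 2.28 CPM in Ctrl. The measured markers of type 2 alveolar cells, of alveolar macrophages and of lung epithelial identity fell too, as given above. Those of ciliated, club and secretory, endothelial and smooth muscle cells rose. Which cells account for the values of these Rabs was not tested.

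**Figure D2:**
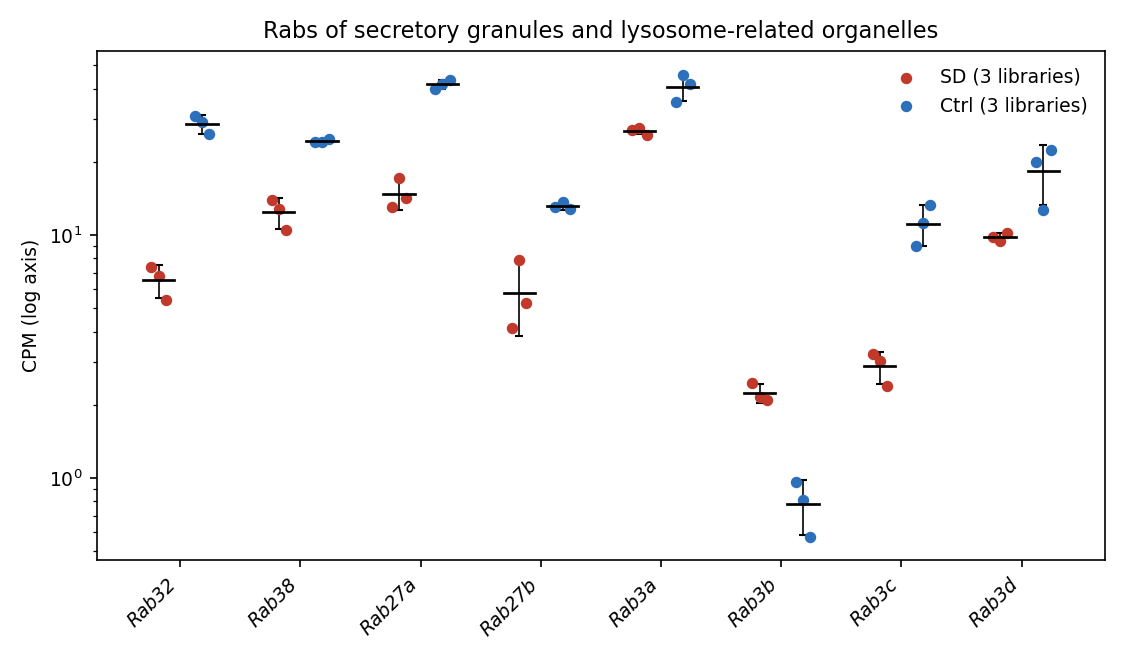
CPM (log axis) of the 8 tested Rabs of secretory granules and lysosome-related organelles in each of the 3 SD libraries (red) and 3 Ctrl libraries (blue); bars are means and error bars 1 s.d. In 7 genes all SD points lie below all Ctrl points, and in Rab3b they lie above.

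Among the Rabs of early endosomes 3 of 7 rose, 2 fell and 2 did not pass, while of all genes tested 28.1% rose and 28.5% fell. The summed level of these Rabs was 952 ± 3.22 CPM in SD and 906 ± 11.4 CPM in Ctrl. Rab5a, a switch for fusion of early endosomes, was at 236, 242 and 227 CPM in SD, against 191, 207 and 176 CPM in Ctrl, and was 1.23-fold higher in SD (log2 fold change 0.29 ± 0.06 SE, adjusted p = 6.4e-05). Rab5c was 349, 361 and 371 CPM in SD, against 306, 307 and 339.8 CPM in Ctrl (1.13-fold higher, adjusted p = 0.0027). Both rose with no overlap between the groups. Rab5b was lower, with 101, 102 and 89.2 CPM in SD, against 149.7, 130.0 and 143 CPM in Ctrl (1.44-fold lower in SD, log2 fold change -0.53 ± 0.07 SE, adjusted p = 8.3e-08), and likewise showed no overlap. Rab20, found on endosomes and phagosomes, fell 2.26-fold (log2 fold change -1.09, adjusted p = 3.8e-06). Rab21, which handles integrins in the endosome, rose 1.12-fold (adjusted p = 0.018), a call that was lost without SD replicate 1, SD replicate 3 or Ctrl replicate 1 (adjusted p up to 0.084). Rab22a and Rab31 did not pass, with log2 fold changes of -0.15 and -0.43.

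The recycling Rabs also went both ways, with 3 higher, 3 lower and 1 not passing, beside 28.1% of all genes tested higher and 28.5% lower. Rab11a, which carries receptors through the recycling endosome, had 486, 493 and 504 CPM in SD, against 419, 451 and 446 CPM in Ctrl (1.13-fold higher, adjusted p = 0.0016). Rab11b had 332, 299.8 and 286 CPM in SD, against 241, 254 and 257 CPM in Ctrl (1.22-fold higher, adjusted p = 3.8e-05). The third RAB11 family member, Rab25, which is restricted to epithelia, had 74.95, 75.2 and 73.1 CPM in SD, against 106, 112 and 113 CPM in Ctrl, and was 1.48-fold lower in SD (log2 fold change -0.56 ± 0.07 SE, adjusted p = 3.2e-08). In all 3 genes the groups were apart. Rab15, another Rab of the endosomal recycling route, fell 3.10-fold, with 11.7, 12.1 and 13.6 CPM in SD, against 42.1, 38.3 and 35.3 CPM in Ctrl (log2 fold change -1.56, adjusted p = 3.9e-12). Rab4b, of the fast recycling route, had 18.4, 22.1 and 15.99 CPM in SD, against 9.11, 10.7 and 10.97 CPM in Ctrl, and was 1.84-fold higher in SD (log2 fold change 0.81 ± 0.18 SE, adjusted p = 0.00016). Its relative Rab4a had 1.54, 3.73 and 4.93 CPM in SD, against 4.002, 4.04 and 4.27 CPM in Ctrl, and did not pass (log2 fold change -0.30, adjusted p = 0.38). The 3 SD values of Rab4a were on both sides of the Ctrl values, and without SD replicate 1 the log2 fold change was 0.05. Rab35, which also serves fast recycling, fell 1.22-fold (adjusted p = 0.0065).

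Of the 12 Rabs of the endoplasmic reticulum and Golgi, 6 rose, 3 fell and 3 did not pass. Of all genes tested, 28.1% rose and 28.5% fell. The summed level of these 12 Rabs was 1831 ± 44.2 CPM in SD and 1561 ± 65.9 CPM in Ctrl (s.d., n = 3 each). Rab2a, which acts between the endoplasmic reticulum and the Golgi, had 736, 723 and 757 CPM in SD, against 549.6, 594 and 577 CPM in Ctrl, and was 1.29-fold higher in SD (log2 fold change 0.36 ± 0.04 SE, adjusted p = 2.5e-09). Per kilobase of exon it was the member with the highest level, at 346 CPM per kilobase in SD and 269 in Ctrl. Rab1a, which drives transport out of the endoplasmic reticulum, had 631, 589 and 627 CPM in SD, against 474, 547 and 503 CPM in Ctrl (1.21-fold higher, adjusted p = 4.9e-06). Its paralog Rab1b had 114, 109 and 98.2 CPM in SD, against 163, 143 and 154 CPM in Ctrl, and was 1.43-fold lower in SD (log2 fold change -0.51 ± 0.07 SE, adjusted p = 7.1e-08). The direction was thus opposite in the paralogs, with no overlap between the groups in either. Rab6a, a Rab of Golgi traffic, had 188, 184 and 211 CPM in SD, against 135, 156 and 136 CPM in Ctrl (1.37-fold higher, adjusted p = 3.6e-07), and Rab6b rose 1.35-fold (adjusted p = 0.0044). Rab30 of the Golgi and Rab39b, whose human gene is mutated in intellectual disability, rose at low levels. Rab39b had 3.38, 5.596 and 4.33 CPM in SD, against 1.52, 1.62 and 1.71 CPM in Ctrl (2.75-fold higher in SD, log2 fold change 1.04 ± 0.28 SE, adjusted p = 0.0018). Rab30 had 3.84, 4.45 and 4.93 CPM in SD, against 2.07, 2.696 and 1.42 CPM in Ctrl (2.13-fold higher, adjusted p = 0.0095), a call lost without Ctrl replicate 3 (adjusted p = 0.062).

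**Figure D3:**
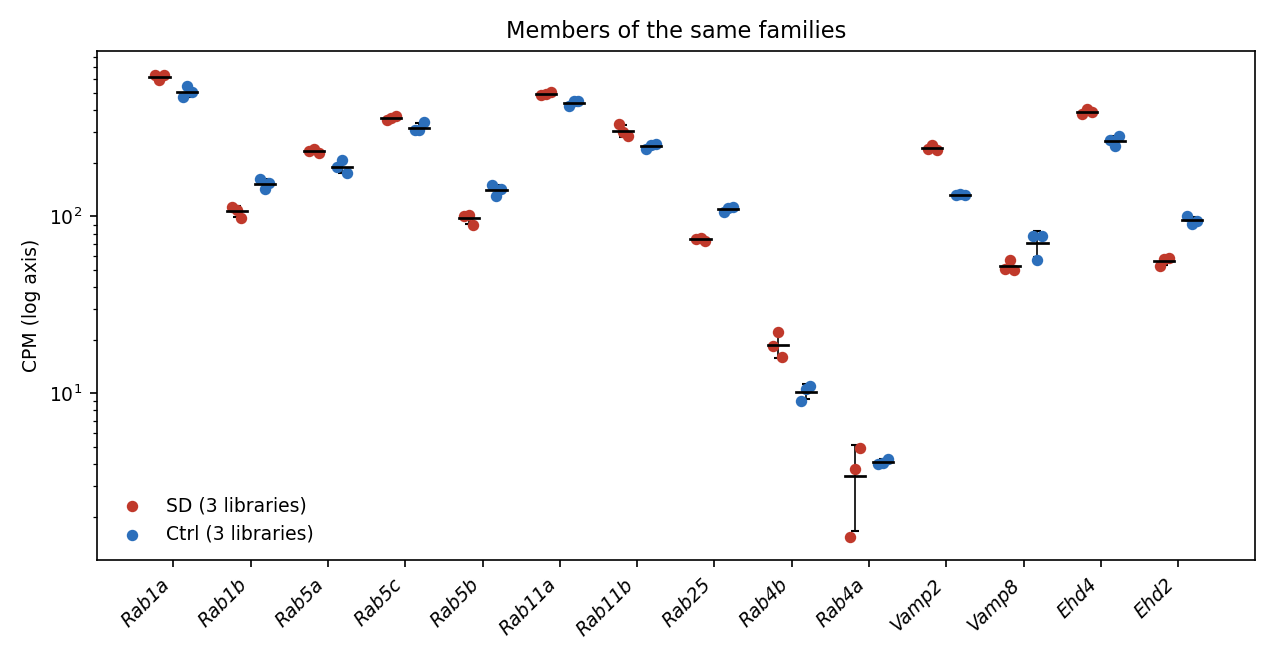
CPM (log axis) of members of the RAB1, RAB5, RAB11, RAB4, VAMP and EHD families in each SD library (red) and Ctrl library (blue); bars are means and error bars 1 s.d. Rab1a, Rab5a, Rab5c, Rab11a, Rab11b, Rab4b, Vamp2 and Ehd4 were higher in SD, while Rab1b, Rab5b, Rab25, Vamp8 and Ehd2 were lower.

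Of the 5 Rabs that carry vesicles to the plasma membrane, 2 fell, 0 rose and 3 did not pass. Of all genes tested, 56.6% were called. Rab8a, of apical and ciliary delivery, had 35.8, 34.6 and 32.3 CPM in SD, against 68.2, 60.3 and 57.8 CPM in Ctrl, and was 1.81-fold lower in SD (log2 fold change -0.84 ± 0.10 SE, adjusted p = 4.4e-09). Rab13, a Rab of epithelial junctions, fell 1.75-fold (adjusted p = 3.0e-05). Rab10 and Rab14, both among the more abundant Rabs, did not pass. Rab10 had 306, 299.6 and 309 CPM in SD, against 294, 325 and 326 CPM in Ctrl, a log2 fold change of -0.04 ± 0.05 (SE). Rab14 had 385, 361 and 394 CPM in SD, against 378, 426 and 367 CPM in Ctrl, a log2 fold change of -0.04 ± 0.05 (SE). The groups overlapped in both.

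Some Rabs with other or several places in the cell were among the larger rises. Rab36, a Rab of the Golgi and late endosomes on chromosome 10 (75037058 to 75054748), had 7.99, 5.45 and 4.33 CPM in SD, against 1.93, 1.35 and 1.71 CPM in Ctrl, and was 3.56-fold higher in SD (log2 fold change 1.35 ± 0.28 SE, adjusted p = 7.1e-05), the highest log2 fold change of the tested members on the log2(CPM + 1) scale, which shrinks low genes. By the ratio of mean CPM, Exoc3l4 and Rab11fip4, both at lower levels, ranked above Rab36. Their ratios rest on Ctrl values of few reads, given below, so no fold is given for either. Rab24, linked to autophagy, had 56.1, 61.6 and 57.5 CPM in SD, against 26.9, 26.6 and 33.9 CPM in Ctrl, and was 2.005-fold higher in SD (log2 fold change 0.99 ± 0.11 SE, adjusted p = 6.7e-10). Every SD library lay above every Ctrl library in both. Rab28, present at the base of cilia, rose 1.32-fold (adjusted p = 0.00029), and Rab12, which acts in degradation of the transferrin receptor, rose 1.203-fold (adjusted p = 0.0010). Rab29, a Golgi and lysosome Rab, fell 1.55-fold (adjusted p = 1.9e-06). Ciliated cell markers rose in the same libraries, with the values given above, while Rab8a, of apical and ciliary delivery, fell (log2 fold change -0.84). A link of these markers to Rab28 or Rab8a was not tested. Over all 48 Rab GTPases the summed level was 4970 ± 56.3 CPM in SD and 4722 ± 120 CPM in Ctrl, while 17 of 47 tested rose and 19 fell. The share called was 76.6%, beside 56.6% of all genes tested. Paralogs with similar sequence can share reads, and no source used here says how such reads were counted, so the values of close pairs such as Rab1a and Rab1b are uncertain to that extent. Rab7 and Rab9 are not analysed here.

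Regulators and effectors of the Rabs were mostly lower or did not pass. Of 32 tested TBC1D and RABGAP proteins, 17 fell, 5 rose and 10 did not pass (median log2 fold change -0.42). The share called was 68.8%, beside 56.6% of all genes tested. Tbc1d20, which inactivates RAB1, had 37.6, 43.2 and 36.6 CPM in SD, against 90.7, 93.2 and 80.8 CPM in Ctrl, and was 2.25-fold lower in SD (log2 fold change -1.15 ± 0.09 SE, adjusted p = 1.6e-13). Tbc1d2, also called Armus, which inactivates RAB7, had 5.38, 2.44 and 3.44 CPM in SD, against 11.6, 10.9 and 9.97 CPM in Ctrl (2.89-fold lower, adjusted p = 7.9e-06). Tbc1d14, a regulator of autophagosome formation that binds RAB11, had 4.45, 4.74 and 8.67 CPM in SD, against 13.7, 13.9 and 18.4 CPM in Ctrl (2.57-fold lower, adjusted p = 5.8e-06). The groups were apart in all 3. Tbc1d9 and Tbc1d9b, a related pair, fell 2.46-fold (adjusted p = 4.7e-09) and 1.76-fold (adjusted p = 7.9e-11), and Rab3gap1, the catalytic subunit of the RAB3 GTPase-activating complex, fell 1.75-fold (adjusted p = 5.2e-05). Against the direction of most, Rabgap1l rose 1.42-fold, with 118, 122 and 127 CPM in SD, against 85.3, 89.1 and 84.5 CPM in Ctrl (adjusted p = 1.9e-07). Tbc1d19 rose 1.52-fold (adjusted p = 1.8e-07). Tbc1d10c, a lymphocyte protein also called carabin, rose 2.32-fold at a low level, with 3.53, 3.16 and 3.88 CPM in SD, against 1.52, 1.62 and 1.42 CPM in Ctrl (adjusted p = 0.010). Of the 3 measured B cell markers, 2 rose in the same comparison, and they summed to 33.8 to 37.5 CPM in SD and 10.8 to 13.2 CPM in Ctrl. Tbc1d24 did not pass the filter, with 0.307, 0.287 and 0.299 CPM in SD, against 2.48, 1.48 and 0.997 CPM in Ctrl, the SD values at 2 reads each and under the floor of 3 reads.

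Among the 10 effectors and regulators that carry a RAB name, 3 fell, 1 rose and 6 did not pass. The share called was 40.0%, below the 56.6% of all genes tested. Rab11fip1, an effector that links RAB11 to receptor recycling, had 7.37, 8.47 and 8.97 CPM in SD, against 31.5, 28.6 and 27.9 CPM in Ctrl, and was 3.55-fold lower in SD (log2 fold change -1.71 ± 0.16 SE, adjusted p = 1.5e-11). Rabep1, or rabaptin-5, which binds RAB5 on early endosomes, had 26.1, 34.6 and 35.4 CPM in SD, against 49.96, 54.6 and 44.1 CPM in Ctrl (1.55-fold lower, adjusted p = 2.2e-05). In both genes the SD libraries were all below the Ctrl libraries. Rab11fip4 was called higher with 2.304, 1.44 and 1.196 CPM in SD, against 0.414, 0.2696 and 0.427 CPM in Ctrl (adjusted p = 0.015), but its Ctrl values were at most 3 reads. No fold is given for it, and the call was lost without SD replicate 1 (adjusted p = 0.076) or Ctrl replicate 2 (adjusted p = 0.051).

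Retromer subunits were lower in 3 of 4 cases (75.0% called, beside 56.6% of all genes tested). The complex of VPS35, VPS29 and VPS26 selects receptors on the endosome for return to the Golgi or the surface, and its 4 genes summed to 405 ± 13.8 CPM in SD and 503.5 ± 8.06 CPM in Ctrl. Vps35, the scaffold, on chromosome 8 (85260392 to 85299802), had 252, 239.6 and 236 CPM in SD, against 289, 308 and 284 CPM in Ctrl, and was 1.21-fold lower in SD (log2 fold change -0.27 ± 0.05 SE, adjusted p = 3.5e-05). Vps26a, whose window with 2 E-box matches is printed above, had 57.1, 44.8 and 48.6 CPM in SD, against 77.6, 72.3 and 79.05 CPM in Ctrl (1.52-fold lower in SD, log2 fold change -0.60 ± 0.09 SE, adjusted p = 7.4e-07). Vps26b, the alternative subunit, had 35.2, 37.7 and 27.4 CPM in SD, against 52.7, 44.9 and 45.9 CPM in Ctrl (1.43-fold lower, adjusted p = 0.00025). No SD library reached a Ctrl library in these 3. Vps29 had 75.4, 78.3 and 82.04 CPM in SD, against 92.1, 78.5 and 86.9 CPM in Ctrl, overlapping groups, and a log2 fold change of -0.12 ± 0.08 (SE) that did not pass (adjusted p = 0.19).

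The sorting nexins, proteins with a phosphoinositide-binding PX domain, had 19 of 29 tested members lower, 2 higher and 8 not passing, with a median log2 fold change of -0.50. Their share called was 72.4%, beside 56.6% of all genes tested. The summed level of the sorting nexins was 2026 ± 27.9 CPM in SD and 2795 ± 41.5 CPM in Ctrl. Snx1, Snx2, Snx5 and Snx6, nexins with a membrane-bending BAR domain that work beside retromer, all fell. Snx32, a relative of Snx5 and Snx6, was called higher with overlapping groups (adjusted p = 0.042). That call was lost when single libraries were left out, as given below. Snx1 had 285, 252 and 264 CPM in SD, against 422, 431 and 426 CPM in Ctrl, and was 1.597-fold lower in SD (log2 fold change -0.67 ± 0.05 SE, adjusted p = 2.7e-14). Snx2 had 338, 352 and 339 CPM in SD, against 433, 464 and 433 CPM in Ctrl (1.29-fold lower, adjusted p = 2.3e-08). Snx5, whose promoter window is printed above, had 72.95, 77.8 and 70.2 CPM in SD, against 158, 154 and 158 CPM in Ctrl, and was 2.13-fold lower in SD (log2 fold change -1.08 ± 0.07 SE, adjusted p = 3.5e-16). Snx6 had 82.5, 74.3 and 69.6 CPM in SD, against 92.6, 106 and 98.6 CPM in Ctrl (1.31-fold lower, adjusted p = 8.5e-05). In each of these 4 the SD libraries lay below the Ctrl libraries, by a wide margin in Snx5 and a narrow one in Snx6. Snx27, which joins retromer to receptors that are recycled to the surface, fell 1.69-fold (log2 fold change -0.73, adjusted p = 5.0e-06). Snx3, which pairs with retromer without a BAR domain, did not pass, with 272, 291 and 267 CPM in SD, against 270.4, 255 and 256 CPM in Ctrl (log2 fold change 0.09 ± 0.05 SE). Snx17, the nexin of the retriever pathway, did not pass either, with 276, 274 and 280.2 CPM in SD, against 299.9, 232 and 281 CPM in Ctrl (log2 fold change 0.04 ± 0.06 SE).

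Larger falls were found in nexins outside that group. Snx25, which carries an RGS domain, lies on chromosome 8 (46033261 to 46152159) and had 66.3, 57.8 and 60.2 CPM in SD, against 244, 245 and 267 CPM in Ctrl. It was 4.099-fold lower in SD (log2 fold change -2.02 ± 0.07 SE, adjusted p = 1.1e-24). Snx7, on chromosome 3 (117781647 to 117868936), which pairs with SNX4 in recycling and autophagy, had 9.06, 6.31 and 4.48 CPM in SD, against 34.6, 28.6 and 38.3 CPM in Ctrl, and was 5.11-fold lower in SD (log2 fold change -2.23 ± 0.19 SE, adjusted p = 5.9e-13), the lowest log2 fold change of the tested members. Snx4 itself had 119.8, 118 and 114 CPM in SD, against 194, 186 and 177 CPM in Ctrl (1.58-fold lower, adjusted p = 1.8e-11). Snx10, a nexin needed by osteoclasts for bone resorption, had 5.38, 5.596 and 5.53 CPM in SD, against 22.5, 22.8 and 19.1 CPM in Ctrl (3.901-fold lower in SD, log2 fold change -1.78 ± 0.19 SE, adjusted p = 1.8e-10). Snx24 had 6.14, 4.88 and 8.07 CPM in SD, against 20.8, 17.7 and 20.2 CPM in Ctrl (3.08-fold lower, adjusted p = 2.5e-08). In these 5 genes the highest SD library was well below the lowest Ctrl library. Snx9 and Snx18, a related pair that shape membrane during endocytosis, fell 1.54-fold (adjusted p = 5.8e-07) and 1.69-fold (adjusted p = 2.2e-08). The 2 nexins that were called higher, Snx14 (adjusted p = 0.016) and Snx32 (adjusted p = 0.042), lost the call when single libraries were left out, with adjusted p up to 0.16 for Snx14 (without SD replicate 1 or Ctrl replicate 1) and up to 0.19 for Snx32 (without SD replicate 1, SD replicate 3, Ctrl replicate 1 or Ctrl replicate 2).

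**Figure D4:**
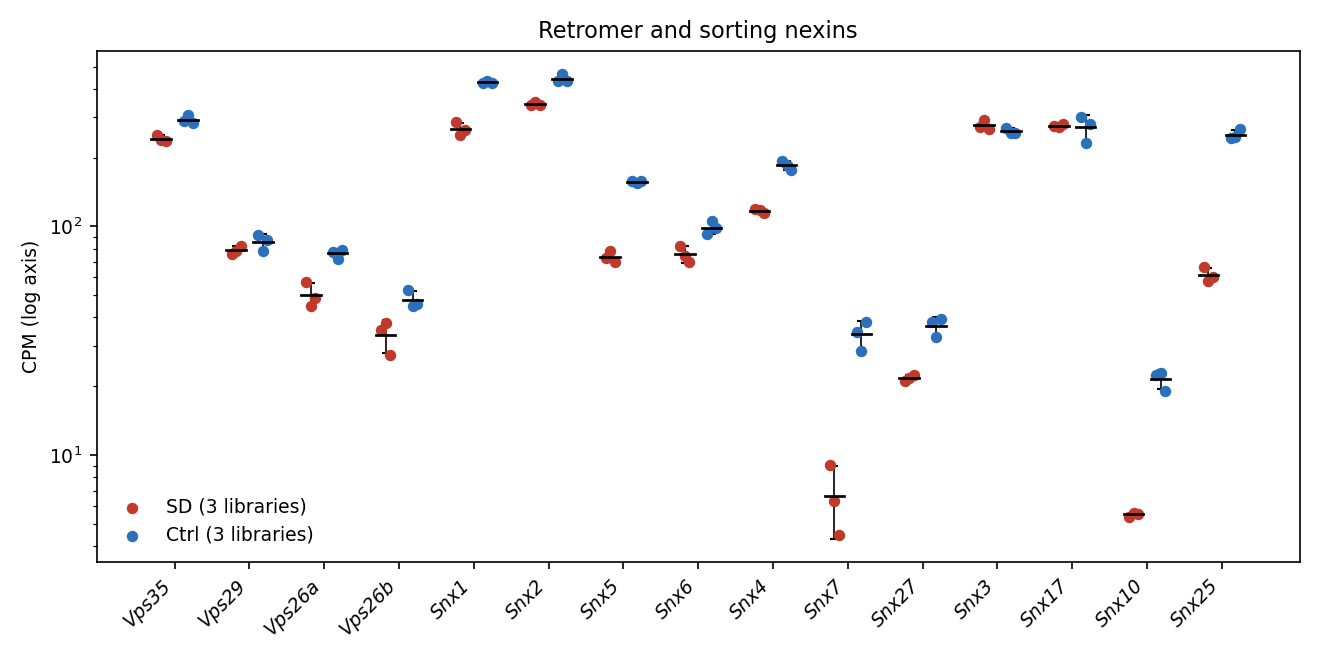
CPM (log axis) of the retromer subunits and of 11 sorting nexins in each SD library (red) and Ctrl library (blue); bars are means and error bars 1 s.d. Snx7, Snx10, Snx25 and Snx5 show the widest gaps, while the groups overlap in Vps29, Snx3 and Snx17.

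Among the ESCRT genes, 18.2% of ESCRT-III and VPS4 and 71.4% of ESCRT-I and ESCRT-II were called, beside 56.6% of all genes tested. Of the 11 ESCRT-III and VPS4 genes, which cut vesicles off into the endosome, 2 fell, 0 rose and 9 did not pass, and the log2 fold changes of these 9 lay between -0.36 and 0.12. Chmp1a had 54.1, 69.7 and 57.2 CPM in SD, against 83.5, 80.2 and 90.3 CPM in Ctrl (1.403-fold lower, adjusted p = 1.5e-05), and Chmp1b had 59.7, 65.2 and 59.5 CPM in SD, against 76.2, 82.2 and 79.8 CPM in Ctrl (1.29-fold lower, adjusted p = 0.00028). Both encode late-acting ESCRT-III subunits, and both had all SD libraries below all Ctrl libraries. Chmp4b, the main filament subunit, had 522, 528 and 542 CPM in SD, against 599, 511 and 569 CPM in Ctrl, a log2 fold change of -0.07 ± 0.05 (SE) that did not pass. It passed without Ctrl replicate 2 (log2 fold change -0.14, adjusted p = 0.0081). Vps4a and Vps4b, the ATPases that take the filament apart, did not pass, with log2 fold changes of 0.12 and -0.21. ESCRT-I and ESCRT-II, which gather ubiquitinated receptors, went both ways, with 3 higher, 2 lower and 2 not passing. Vps25 of ESCRT-II had 464, 421 and 450.1 CPM in SD, against 346, 329 and 333 CPM in Ctrl, and was 1.33-fold higher in SD (log2 fold change 0.40 ± 0.05 SE, adjusted p = 4.8e-09), while its partner Vps36 had 83.4, 87.1 and 83.8 CPM in SD, against 109, 102 and 105 CPM in Ctrl (1.24-fold lower, adjusted p = 0.00042). Neither overlapped between the groups. Vps37d of ESCRT-I was 1.61-fold higher (adjusted p = 0.016), and its call was lost without SD replicate 1, SD replicate 2 or Ctrl replicate 2 (adjusted p 0.057 to 0.090). Likewise Vps37a, called higher, lost its call without SD replicate 3 or Ctrl replicate 2 (adjusted p up to 0.12), and Vps28, called lower, without SD replicate 2, SD replicate 3, Ctrl replicate 1 or Ctrl replicate 3 (adjusted p up to 0.29). Outside the naming rule, 13 ESCRT-0, ESCRT-I and accessory genes were tested, of which 3 rose, 5 fell and 5 did not pass. The ESCRT-I subunit Tsg101 was higher, at 277 ± 7.86 CPM in SD and 205 ± 5.90 CPM in Ctrl (adjusted p = 1.3e-08), and so was Snf8, the third subunit of ESCRT-II, at 163 ± 6.03 CPM in SD and 136 ± 4.17 CPM in Ctrl (adjusted p = 0.00050). Ist1, a relative of the ESCRT-III subunits, was at 127 ± 5.59 CPM in SD and 85.2 ± 2.75 CPM in Ctrl (log2 fold change 0.57, adjusted p = 1.1e-08). Mvb12b, another ESCRT-I subunit, went the other way, at 3.93 ± 0.911 CPM in SD and 13.4 ± 1.50 CPM in Ctrl (3.41-fold lower, log2 fold change -1.56, adjusted p = 1.6e-07). Usp8, a deubiquitinase that acts on ESCRT cargo, was also lower, at 53.6 ± 2.87 CPM in SD and 126 ± 5.77 CPM in Ctrl (adjusted p = 2.8e-16). The ESCRT-0 subunits Stam, at 15.8 ± 1.28 CPM in SD and 30.5 ± 2.17 CPM in Ctrl (adjusted p = 7.4e-07), and Stam2, at 6.01 ± 2.16 CPM in SD and 13.5 ± 3.07 CPM in Ctrl (adjusted p = 0.00012), were lower as well.

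HOPS and CORVET, which tether late and early endosomes before fusion, had 5 of 8 genes lower and 1 higher, VPS33B included. The share called was 75.0%, beside 56.6% of all genes tested. Vps39 had 37.9, 41.9 and 48.9 CPM in SD, against 69.7, 79.95 and 67.9 CPM in Ctrl, and was 1.69-fold lower in SD (log2 fold change -0.75 ± 0.10 SE, adjusted p = 3.4e-08). Vps41, which like Vps39 is found in HOPS and not in CORVET, had 74.95, 71.03 and 65.8 CPM in SD, against 93.2, 99.5 and 88.5 CPM in Ctrl (1.33-fold lower, adjusted p = 4.6e-05). The shared core subunit Vps16 was higher, with 109.7, 109.6 and 105 CPM in SD, against 83.6, 83.05 and 88.9 CPM in Ctrl (1.27-fold, adjusted p = 0.00012). The libraries of the groups were apart in all 3. The calls of Vps8 and Vps18, lower with overlapping groups, were lost when single libraries were left out, Vps8 without SD replicate 1, SD replicate 3, Ctrl replicate 2 or Ctrl replicate 3 (adjusted p up to 0.25) and Vps18 without SD replicate 3, Ctrl replicate 1 or Ctrl replicate 3 (adjusted p up to 0.19). Vps11, another core subunit, did not pass (log2 fold change 0.12, adjusted p = 0.12). In the GARP and EARP tethers Vps53 fell 1.33-fold (adjusted p = 6.0e-05) and Vps51 1.22-fold (adjusted p = 0.013), and the Vps51 call was lost without SD replicate 2, Ctrl replicate 1 or Ctrl replicate 3 (adjusted p 0.056 to 0.091). Vps52 and Vps54 did not pass. The lipid transfer proteins Vps13a, Vps13b, Vps13c and Vps13d all fell, by 1.35-fold, 1.59-fold, 1.78-fold and 1.304-fold (adjusted p = 0.0072, 3.0e-05, 0.0020 and 5.1e-05 in that order), and the call of Vps13a was lost without Ctrl replicate 3 (adjusted p = 0.082). Vps72 is a chromatin protein despite its name and did not pass (adjusted p = 0.0503).

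In the exocyst, which tethers secretory vesicles at the plasma membrane, 4 of 9 tested genes fell, 1 rose and 4 did not pass. The share called, 55.6%, was near the 56.6% of all genes tested. Exoc4 had 17.1, 18.8 and 15.99 CPM in SD, against 28.9, 42.9 and 38.5 CPM in Ctrl, and was 2.12-fold lower in SD (log2 fold change -1.03 ± 0.14 SE, adjusted p = 8.4e-08). Exoc2 had 9.52, 12.1 and 16.6 CPM in SD, against 27.6, 29.9 and 21.6 CPM in Ctrl (2.08-fold lower in SD, log2 fold change -1.02 ± 0.17 SE, adjusted p = 3.9e-06). All SD values of both genes lay below the Ctrl values, although those of Exoc2 came closer, with SD replicate 3 at 16.6 CPM and Ctrl replicate 3 at 21.6 CPM. Exoc3 and Exoc6b fell 1.64-fold and 1.68-fold (adjusted p = 0.00059 and 0.0031), whereas Exoc1, Exoc5, Exoc6 and Exoc7 did not pass. Exoc3l4, a relative of the subunit EXOC3, was called higher, with 1.84, 1.15 and 4.18 CPM in SD, against 0.6901, 0.2696 and 0.142 CPM in Ctrl (adjusted p = 0.0024). Of its Ctrl values 2 were under 3 reads, so no fold is given.

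Adaptor complexes choose cargo for coated vesicles, and 8 of their 19 tested subunits fell, 4 rose and 7 did not pass. The share called was 63.2%, beside 56.6% of all genes tested. Ap2b1, the beta subunit of the AP-2 adaptor of clathrin-mediated endocytosis, had 71.9, 66.01 and 85.5 CPM in SD, against 143, 144 and 149.8 CPM in Ctrl, and was 1.96-fold lower in SD (log2 fold change -0.97 ± 0.08 SE, adjusted p = 2.1e-13). Ap2m1, the cargo-binding subunit of AP-2, had 676, 663 and 635 CPM in SD, against 740.0, 741 and 728 CPM in Ctrl (1.12-fold lower, adjusted p = 0.00096), the highest mean CPM of the members. Ap2s1, the small subunit, fell 1.23-fold (adjusted p = 1.1e-05). The 3 AP-2 members thus fell, by amounts between 1.12-fold and 1.96-fold. The AP-2 alpha subunits, outside the naming rule, did not pass and had overlapping groups. Their log2 fold changes were 0.07 for Ap2a1 (adjusted p = 0.33) and -0.15 for Ap2a2 (adjusted p = 0.21). In AP-1 of the trans-Golgi, Ap1b1 had 53.8, 60.8 and 63.4 CPM in SD, against 98.8, 98.02 and 95.9 CPM in Ctrl (1.65-fold lower, adjusted p = 1.7e-09), Ap1s1 fell 1.701-fold (adjusted p = 1.8e-09), and Ap1m2, the epithelial mu subunit, 1.41-fold (adjusted p = 0.00024). Ap1m1, the widely expressed mu subunit, did not pass (log2 fold change 0.04), and Ap1g1 rose 1.17-fold (adjusted p = 0.0067). Ap3b1, a subunit of the AP-3 adaptor that supplies lysosome-related organelles and that is mutated in a mouse model of Hermansky-Pudlak syndrome, had 68.3, 80.9 and 74.3 CPM in SD, against 110.0, 110.0 and 108 CPM in Ctrl, and was 1.47-fold lower in SD (log2 fold change -0.55 ± 0.08 SE, adjusted p = 1.0e-07). Ap3m2, the neuronal mu subunit of AP-3, rose 1.61-fold, with 14.1, 14.6 and 10.5 CPM in SD, against 7.87, 9.57 and 6.98 CPM in Ctrl (adjusted p = 0.0083). The subunits of AP-4, which exports cargo from the trans-Golgi, went both ways. Ap4s1 rose 1.35-fold (adjusted p = 0.0024). Ap4b1 rose 1.41-fold (adjusted p = 0.019), a call lost without SD replicate 1, Ctrl replicate 2 or Ctrl replicate 3 (adjusted p up to 0.19). Ap4m1 did not pass (log2 fold change -0.15). The large subunit Ap4e1, outside the naming rule, was lower (log2 fold change -0.52, adjusted p = 0.032).

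Among the EHD proteins, ATPases that shape endosomal membrane, 1 rose, 1 fell and 2 did not pass (50.0% called, beside 56.6% of all genes tested). Ehd4 had 378, 406 and 388 CPM in SD, against 271, 249 and 284 CPM in Ctrl, and was 1.46-fold higher in SD (log2 fold change 0.54 ± 0.05 SE, adjusted p = 2.6e-11). Ehd2, which steadies caveolae at the surface, had 52.7, 57.7 and 58.3 CPM in SD, against 100.2, 91.1 and 93.7 CPM in Ctrl, and was 1.69-fold lower in SD (log2 fold change -0.75 ± 0.08 SE, adjusted p = 5.7e-10). Each gene had its groups apart, in opposite directions. Ehd1 and Ehd3 did not pass, with log2 fold changes of 0.10 and 0.19.

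SNARE proteins, which fuse the vesicle with its target, moved both ways. Vamp2, the synaptobrevin of regulated exocytosis, on chromosome 11 (69088490 to 69092384), had 239.7, 252 and 236 CPM in SD, against 132, 134 and 133 CPM in Ctrl, and was 1.83-fold higher in SD (log2 fold change 0.86 ± 0.06 SE, adjusted p = 1.2e-15), with the groups far apart. Vamp8, a SNARE of late endosomes and of secretion in several glands, had 50.2, 56.97 and 49.8 CPM in SD, against 77.4, 56.9 and 77.5 CPM in Ctrl (1.35-fold lower, adjusted p = 0.00063). SD replicate 2 and Ctrl replicate 2 of Vamp8 were at almost the same level. Of 11 tested syntaxins 7 fell, 1 rose and 3 did not pass (median log2 fold change -0.45). The share called was 72.7%, beside 56.6% of all genes tested. Stx6, of the trans-Golgi and endosomes, had 29.8, 26.8 and 23.8 CPM in SD, against 55.1, 48.5 and 45.3 CPM in Ctrl, and was 1.85-fold lower in SD (log2 fold change -0.87 ± 0.12 SE, adjusted p = 4.2e-08). Stx12, of early and recycling endosomes, had 61.3, 69.02 and 57.4 CPM in SD, against 105, 91.1 and 95.3 CPM in Ctrl (1.55-fold lower, adjusted p = 4.7e-08), and Stx7, of late endosomes, had 76.02, 83.4 and 86.8 CPM in SD, against 119.7, 116 and 106 CPM in Ctrl (1.39-fold lower, adjusted p = 1.9e-06). Stx16, which joins Stx6 in fusion at the trans-Golgi, went the other way, with 62.5, 54.7 and 59.2 CPM in SD, against 38.6, 45.6 and 41.9 CPM in Ctrl (1.399-fold higher, adjusted p = 8.1e-05). The 4 had no overlap between groups. Stx3, of apical membranes, was called lower (adjusted p = 0.034) with overlapping groups, and the call was lost with TMM scaling (adjusted p = 0.053), with DESeq2 (adjusted p = 0.076) and without SD replicate 1, SD replicate 2 or Ctrl replicate 3 (adjusted p up to 0.22). Vamp7 and Stx4a are not analysed here.

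The direction of the members was read against their level, since members differ widely in depth. Of the 69 members with the lowest mean levels, 1.01 to 14.8 CPM, 15.9% rose and 36.2% fell. Of all genes tested between 0.777 and 15.68 CPM, 19.8% rose and 21.3% fell. Of the 69 members between 16.1 and 61.5 CPM, 11.6% rose and 59.4% fell. Of all genes tested between 15.69 and 61.76 CPM, 26.9% rose and 34.0% fell. Of the 69 members between 62.4 and 697 CPM, 26.1% rose and 47.8% fell. Of all genes tested between 61.82 and 12210 CPM, 41.7% rose and 33.5% fell. That last set reaches far above the highest member, so its levels are not matched to those of the members. In each comparison the share of members that fell was above, and the share that rose below, that of the genes tested. The median log2 fold changes of the members were -0.39, -0.36 and -0.12 from the lowest levels to the highest. Those of the sets of all genes were -0.03, -0.05 and 0.05 in the same order.

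**Figure D5:**
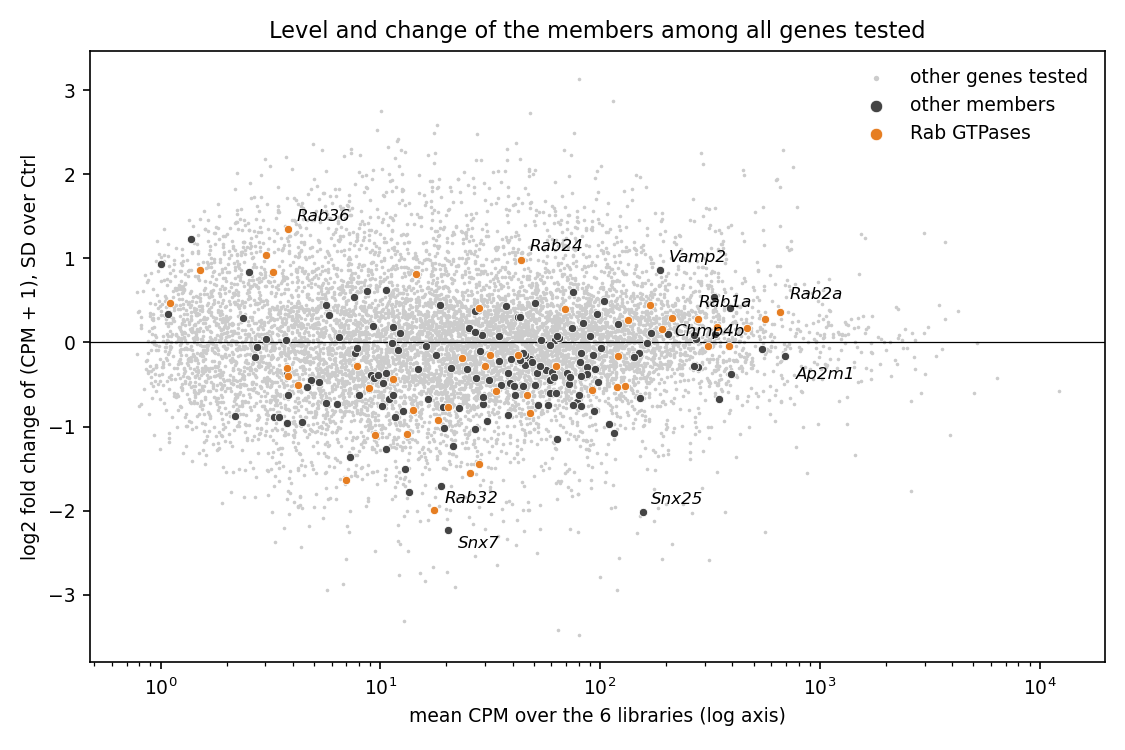
Log2 fold change of (CPM + 1), SD over Ctrl, against mean CPM over the 6 libraries (log axis) for all genes tested (light grey), the Rab GTPases (orange) and the other members (dark grey). Snx7 (-2.23) and Rab36 (1.35) mark the ends of the range at low levels, Snx25 (-2.02) stands lower than the other members of its level, and the abundant Rab2a, Rab1a, Chmp4b and Ap2m1 lie between -0.16 and 0.36.

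Partners of these proteins outside the naming rule were read from a list of 158 genes, of which 138 were measured and tested. Of these, 17 rose, 56 fell and 65 did not pass, with a median log2 fold change of -0.22. The share called was 52.9%, beside 56.6% of all genes tested. Among the sorting receptors and cargo 5 of 9 fell and 1 rose, the endocytic receptor Lrp1, at 565 ± 18.9 CPM in SD and 498 ± 23.9 CPM in Ctrl (adjusted p = 0.00084). The lower ones included Tfrc, the transferrin receptor that recycles through endosomes, at 22.2 ± 1.74 CPM in SD and 59.3 ± 5.84 CPM in Ctrl (adjusted p = 3.1e-13), and Sort1, sortilin, at 123 ± 6.39 CPM in SD and 195 ± 2.22 CPM in Ctrl (adjusted p = 1.2e-11). WASH and commander act with retromer and retriever. The measured genes of their list were COMMD genes, Ccdc93 and Vipas39, with no WASH gene among them. Of these 9, 6 fell and 0 rose. Vipas39, a partner of VPS33B and not a part of WASH or commander, is among those that fell (adjusted p = 0.0026). Of the enzymes of endosomal phosphoinositides, the lipids that sorting nexins bind, and proteins of their complexes, 9 of 13 fell and 2 rose. The share called was 84.6% here and 66.7% in both groups before. It was 40.0% in Rab GEFs (8 of 25 fell, 2 rose) and 42.9% in Rab effectors (8 of 21 fell, 1 rose). It was 35.0% in other SNAREs and fusion factors (6 of 20 fell, 1 rose). Of 21 clathrin coat and adaptor genes, 7 fell and 4 rose (52.4%). Of 7 Rab escort and prenylation genes, 3 rose and 2 fell. The class V myosins that move Rab vesicles were lower. Myo5b, a motor for RAB11 and RAB25 vesicles, was at 29.7 ± 2.86 CPM in SD and 82.0 ± 4.77 CPM in Ctrl (log2 fold change -1.44, adjusted p = 1.9e-15), Myo5c at 50.8 ± 5.55 CPM in SD and 94.8 ± 3.19 CPM in Ctrl (adjusted p = 2.7e-11), and Myo5a, the motor of Rab27a in melanocytes, at 23.2 ± 1.98 CPM in SD and 42.5 ± 2.47 CPM in Ctrl (adjusted p = 1.3e-07). The largest fall in log2 fold change in the list was that of Dab2, an endocytic adaptor, at 9.38 ± 3.14 CPM in SD and 35.4 ± 3.52 CPM in Ctrl (log2 fold change -1.85, adjusted p = 7.7e-12). Sorcs2, a VPS10-domain sorting receptor, followed, at 5.62 ± 1.36 CPM in SD and 20.3 ± 2.36 CPM in Ctrl (log2 fold change -1.70, adjusted p = 2.2e-09). Epn3, an epsin of clathrin-coated pits, was at 38.7 ± 4.10 CPM in SD and 114 ± 1.85 CPM in Ctrl (log2 fold change -1.54, adjusted p = 6.9e-18). The largest rise in log2 fold change was that of Cltb, a clathrin light chain, at 315 ± 12.2 CPM in SD and 178 ± 12.2 CPM in Ctrl (log2 fold change 0.83, adjusted p = 2.4e-15). Dnm1, a dynamin that cuts coated vesicles off, was at 41.2 ± 3.93 CPM in SD and 24.1 ± 3.08 CPM in Ctrl (log2 fold change 0.75, adjusted p = 2.4e-06). Appl2, an effector of Rab5, rose to 143 ± 3.38 CPM in SD, against 86.0 ± 7.55 CPM in Ctrl (log2 fold change 0.73, adjusted p = 3.5e-11). Rabggtb, a subunit of the enzyme that adds the lipid anchor to Rabs, rose to 31.7 ± 4.95 CPM in SD, against 21.8 ± 3.32 CPM in Ctrl (log2 fold change 0.52, adjusted p = 0.0016).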

How the data were processed

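RNA of 6 lung tumour libraries, 3 SD and 3 Ctrl, was made with TRIzol extraction and 1.5 ug of RNA in a NEBNext Ultra kit, per the labels' protocols, with no strand setting stated. Overlapping genes on opposite strands therefore cannot be told apart. The genotype is not reported here; its label differs in 1 number between samples while the design text gives a single genotype, and the libraries were treated as 1 genotype. HISAT2 2.0.5, featureCounts 1.5.0-p3 and mm10 are named in the submitters' processing notes, without their settings. Per the file headers, the authors gave CPM for 10191 genes in a single deposited table; on what ground genes were kept is unknown.

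Whole reads were recovered from the CPM steps for 61022 of 61146 values (99.8%, tolerance 0.01 read). The other 124 values lie among the first 60 genes of the table, which hold no member. Library totals were 6511192 to 7417095 reads, where 1 read equals 0.135 to 0.154 CPM. Replicates differed beyond counting noise, so none was a copy of another. The 10004 genes that reached 1 CPM in 3 or more libraries were tested with limma 3.58.1 in R 4.3.3, with trend, on log2(CPM + 1), with the group as sole term and Benjamini-Hochberg adjustment over all genes tested, threshold 0.05. The pseudocount makes log2 fold changes of low genes too small; N-fold values are mean CPM divided by mean CPM. The edgeR 4.0.16 quasi-likelihood test and the DESeq2 1.42.0 test ran on the recovered counts as alternatives to the test on the deposited CPM; edgeR called 5643 of 10004 genes. Other alternatives were TMM scaling, pseudocounts of 0.1 and 5, other filters, the table without its first 60 genes, the replicate number as a block, and each library left out.

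Exon lengths and coordinates are from GENCODE vM21 and promoter sequences from RefSeq. The members, role groups, partner and marker lists were chosen with earlier results of these data known. Members named by rule were the 12 largest rises and falls among called members with non-overlapping groups, the 2 smallest p per role and 39 landmark genes in the table, plus the 5 largest changes in each direction among partners; others were named after their values were seen.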

Additional observations from a re-analysis of the deposited data

How the results depend on the processing

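Of the 136 called members, 105 kept their call and direction in all 6 fits that each left out 1 library, and 31 lost it in at least 1 of them (11 higher, 20 lower): Ap3m1, Ap4b1, Rab11fip4, Rab18, Rab21, Rab30, Rab33b, Rab3b, Rab40c, Snx14, Snx15, Snx19, Snx32, Snx33, Stx17, Stx19, Stx3, Stx8, Tbc1d10a, Tbc1d23, Tbc1d30, Tbc1d4, Tbc1d5, Vamp1, Vps13a, Vps18, Vps28, Vps37a, Vps37d, Vps51 and Vps8. No member called in SD over Ctrl was called in the opposite direction in any of the 15 alternative fits. Leaving out 1 library gave 31 to 37 members higher, 86 to 96 lower and a median of -0.31 to -0.27. TMM scaling gave 39 higher and 93 lower, DESeq2 36 and 89, edgeR 37 and 98. With a pseudocount of 5 the median was -0.26, because that pseudocount shrinks low genes. The bound of 2-fold left 3 higher and 18 lower by its construction. Replicate numbers did not pair the libraries (correlations of deviations -0.00744, -0.0189 and 0.0124), and with the replicate block 37 members were higher, 98 lower and 5603 genes were called. Among the named genes the log2 fold change of Rab4a reversed without SD replicate 1 (0.053; range over the 6 fits -0.56 to 0.053) and the log2 fold change of Rab14 without SD replicate 2 (0.00037) or Ctrl replicate 2 (0.028; range -0.0791 to 0.0278). Neither passed, and the cause was not tested. The filter of 10 reads left out Rab11fip4 and Exoc3l4, which rest on few reads in Ctrl. At 6511192 to 7417095 reads per library, genes near 1 CPM have wide counting error.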
